A study of Rattus norvegicus with 2 samples.

Results

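The genes for voltage-gated and potassium ion channels were examined in cultures of rat OPCs (oligodendrocyte precursor cells), which give rise to the myelinating oligodendrocytes of the central nervous system. Members were taken by gene symbol alone, as the potassium channel genes beginning with Kcn, the voltage-gated sodium channel genes (Scn, a number, then a or b), the calcium channel genes beginning with Cacn and the chloride channel and exchanger genes beginning with Clcn. This gave 134 of the 17455 genes in the table: 86 potassium, 14 sodium, 25 calcium and 9 chloride channel genes. RNA was sequenced from wild-type OPCs transfected, with a Lonza kit, with either empty vector (labelled control, called vector here) or a Slit1 construct (called Slit1), with 1 library in each group. The sources used here give neither the strain, the age, the purity of the cultures nor the time from transfection to harvest. Slit1 mRNA itself, which encodes a secreted ligand of Robo receptors, was at 1.70 transcripts per 1000000 (TPM) in vector and at 229.7 in Slit1.

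Ion channels set the resting potential and excitability of a cell. OPCs are unusual among glia in carrying voltage-gated sodium, potassium and calcium channels. As the cells differentiate they are known to lose much of the voltage-gated current, while potassium conductance through inward rectifiers comes to dominate. Most channels combine a pore-forming subunit with auxiliary subunits that set its surface expression and gating, so the results are ordered by these roles.

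Of the 134 genes, 98 had at least 20 read counts summed over both libraries, and statements on differences are restricted to these. The other 36 had at most 17.26 summed counts and at most 0.63 TPM in either library. Just inside this limit lay Clcn1 (20.2 summed counts) and Kcnf1 (22 summed counts), and just outside it Scn4a (17.26) and Kcnk1 (15.94). For each gene the ratio of the TPM values is given with its exact 95% interval for counting error. A gene is called higher or lower when that ratio is at least 1.5-fold and the interval leaves out 1. Since each group is 1 library, no value has a replicate check and no p-value is given. The intervals cover counting error only, not the spread between cultures.

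By this rule 5 of the 98 channel genes were higher in Slit1 (5.10%, against 4.26% of all 13938 genes with 20 or more counts). There were 11 lower channel genes (11.2%, against 6.15% of all genes). The median log2 ratio over the 98 was -0.14, and over all genes it was -0.05. The 5 higher genes were all for potassium channel pores: Kcnj12, Kcnk12, Kcnb2, Kcnh5 and Kcnj14. The 11 lower genes were the potassium channel genes Kcna3, Kcnk4, Kcnh1, Kcnj16, Kcnk2, Kcna1, Kcnn2 and Kcnj2, the calcium channel genes Cacna2d1 and Cacng8, and the chloride exchanger gene Clcn5. No sodium channel gene was called in either direction. Over all genes the calls numbered 594 higher and 857 lower; the higher ones made up 40.9% of them, and 51.4% once ratios were centred on the median gene.

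**Figure D1:**
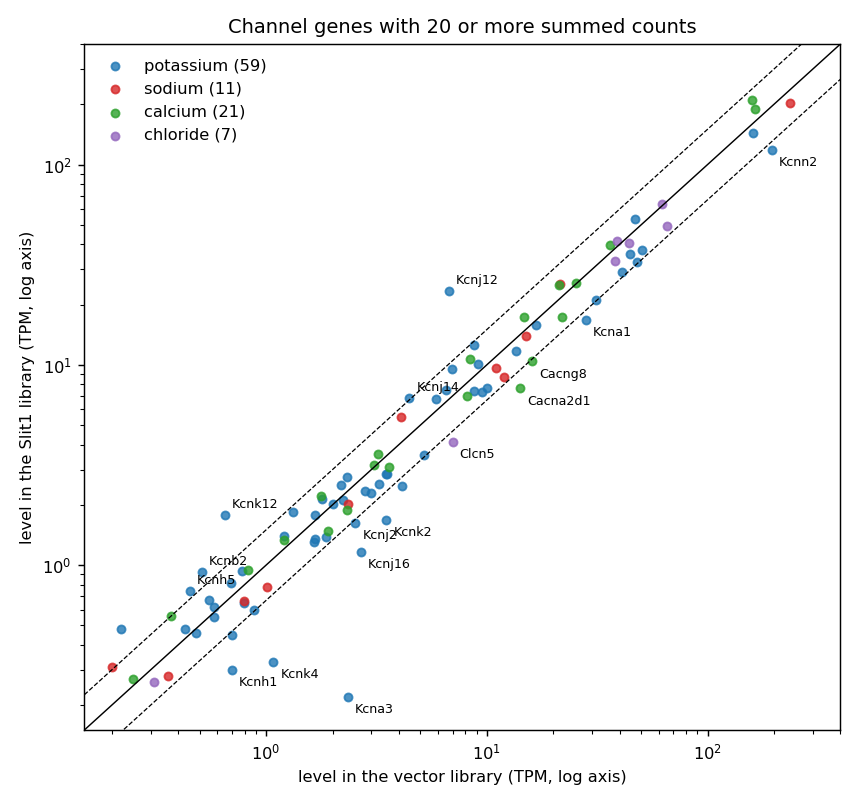
Level of each of the 98 channel genes in the vector library (x axis) and the Slit1 library (y axis), in TPM on log axes, coloured by class; the solid line marks equal levels and the dashed lines 1.5-fold differences. The 16 called genes carry their names: Kcnj12 stands farthest above the lines and Kcna3 farthest below.

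The 7 genes listed as OPC markers were present in both libraries. Pdgfra, the PDGF receptor of OPCs, was at 40.2 and 41.4 TPM in vector and Slit1. The 7 genes summed to 2047 and 2085 TPM, mostly from Ptprz1 and Olig1 (730.1 and 686.0 TPM). Of the 7, 2 were higher in Slit1, Sox10 (71.4 and 218.0 TPM, ratio 3.05) and Gpr17 (109.8 and 263.0 TPM, ratio 2.40), and the most abundant, Ptprz1, measured 913.6 and 688.2 TPM (ratio 0.753). All 8 oligodendrocyte markers examined were higher in Slit1, and their sum was 1167 and 4648 TPM. Astrocyte transcripts were abundant in both: the 8 astrocyte markers summed to 9446 and 10450 TPM, with Gfap at 4694 and 6130 TPM, and 2 of the 8, Gja1 and Slc1a2, were lower in Slit1. The 13 neuronal markers summed to 192.1 and 188.6 TPM, of which Map2 gave 108.5 and 101.4 TPM. Of the 11 with 20 or more counts, 4 were lower (36.4%: Elavl4, Gad2, Nefl and Nefm) and 0 higher. The interval lay below 1 for 6 of the 11 and above 1 for 1, Tubb3 (33.6 and 46.5 TPM, ratio 1.39, interval 1.23 to 1.56). Slc17a6 and Slc17a7, which mark glutamatergic neurons, had under 20 summed counts and were at 0 in Slit1. These marker counts stand beside 4.26% higher and 6.15% lower among all genes. Microglial markers were close to 0, with 0.67 and 0.74 TPM summed over the 4 in the table. Endothelial and mural markers summed to 8.17 and 8.66 TPM, mostly from Pdgfrb (7.06 and 7.94 TPM). Fibroblast markers summed to 15.5 and 13.9 TPM. Schwann cell markers summed to 57.5 and 35.5 TPM, nearly all from Pmp2 (56.9 and 35.0 TPM, ratio 0.616, interval 0.542 to 0.698). The part of these marker differences in the channel results was not tested. In RNA from whole cultures, fewer cells of a type and less RNA per cell cannot be told apart.

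Calcium- and sodium-activated potassium channels had the largest summed mRNA of the potassium channel subgroups in both libraries. The 7 genes of this group summed to 297.3 TPM in vector and 195.5 TPM in Slit1. Kcnn2 (NCBI gene 54262), for a small-conductance calcium-activated channel, led the whole potassium class in vector with 195.3 TPM and came second in Slit1 with 118.6 TPM. This is 1.65-fold lower (interval 1.56 to 1.73, from 3772 and 2332 estimated counts), and its share of all potassium channel TPM was 23.7% in vector and 17.6% in Slit1. Kcnn3, a close relative, measured 40.9 and 28.9 TPM (ratio 0.708, interval 0.671 to 0.747). Kcnt1, for a sodium-activated channel, measured 50.3 and 37.4 TPM (ratio 0.744, interval 0.694 to 0.798). Both lay below 1 beyond counting error without reaching 1.5-fold. Kcnma1, for the large-conductance calcium-activated channel, was scarce at 1.87 and 1.38 TPM (ratio 0.738, interval 0.529 to 1.03). Kcnn1 was the member of this group with a ratio above 1 (5.88 and 6.76 TPM, interval 0.918 to 1.44).

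Inward rectifiers pass potassium more readily into the cell than out of it and hold the membrane near its resting potential. Their sum was nearly equal in both libraries, at 188.8 and 189.7 TPM, but its make-up differed. Kcnj10, the main inward rectifier gene of oligodendrocytes and astrocytes, supplied most of it, with 161.3 and 143.8 TPM (ratio 0.891, interval 0.861 to 0.922). It became the most abundant potassium channel gene in Slit1, with 21.3% of that class against 19.5% in vector. Kcnj12 (NCBI gene 117052), of the strongly rectifying subfamily, was at 6.72 TPM in vector against 23.4 in Slit1. It was 3.48-fold higher (interval 2.97 to 4.10, from 193.9 and 746.9 counts), the largest ratio among the 98 channel genes. Kcnj14, of the same subfamily, measured 4.45 and 6.84 TPM (1.54-fold higher, interval 1.19 to 1.99). Kcnj2, another gene of that subfamily, went the other way, with 2.54 and 1.62 TPM (1.57-fold lower, interval 1.17 to 2.12). Kcnj16, whose product pairs with that of Kcnj10, measured 2.69 and 1.16 TPM (2.32-fold lower, interval 1.53 to 3.53, from 71.3 and 37 counts). Of the 8 inward rectifier genes with enough counts, 2 were thus higher and 2 lower, against 4.26% and 6.15% of all genes. The subunit gene Kcnj9, of the G protein-gated channels, measured 6.95 and 9.57 TPM (ratio 1.38, interval 1.10 to 1.73). Kcnj8, known from mural cells, was at 2.01 and 2.02 TPM.

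The promoters of the inward rectifier genes that were called and had an entry in the RefSeq promoter table are shown because they include a neighbouring pair of lower genes and a related higher gene. Kcnj16 and Kcnj2 follow each other with no other protein-coding gene between them in the RefSeq annotation of GRCr8, and both were lower, whereas Kcnj14 was higher. Each window holds the 250 bases before the annotated start, read 5′ to 3′ on the gene's strand, from RefSeq on GRCr8. Capitals mark matches to 3 motifs searched on both strands. These are ACAAAG, the core bound by SOX factors, CAGCTG, a form of the E-box, and TGANTCA, a relaxed form of the AP-1 site. From here on E-box means CAGCTG alone, since other forms of the E-box were not searched. AP-1 motif means TGANTCA with any base at N, so its matches include strings outside the strict AP-1 site.
Kcnj16, chr10:96517074-96517323, plus strand: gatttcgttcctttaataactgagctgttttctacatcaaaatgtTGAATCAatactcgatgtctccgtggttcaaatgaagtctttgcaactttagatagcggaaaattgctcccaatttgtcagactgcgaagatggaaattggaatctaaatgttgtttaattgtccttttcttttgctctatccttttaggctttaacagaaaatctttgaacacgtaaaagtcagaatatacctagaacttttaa
Kcnj2, chr10:96559975-96560224, plus strand: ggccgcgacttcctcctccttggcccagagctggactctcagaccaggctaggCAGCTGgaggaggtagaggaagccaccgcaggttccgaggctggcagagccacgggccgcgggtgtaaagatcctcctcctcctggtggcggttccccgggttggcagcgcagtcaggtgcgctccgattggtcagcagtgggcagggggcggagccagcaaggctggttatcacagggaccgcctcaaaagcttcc
Kcnj14, chr1:105437259-105437508, minus strand: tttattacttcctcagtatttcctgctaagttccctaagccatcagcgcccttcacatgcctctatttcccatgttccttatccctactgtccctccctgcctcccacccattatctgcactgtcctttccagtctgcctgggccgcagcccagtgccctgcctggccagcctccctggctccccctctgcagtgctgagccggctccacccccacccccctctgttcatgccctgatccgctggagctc

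The Kcnj16 window was AT-rich, with a GC content of 33.6%, and held 1 match to the relaxed AP-1 motif, TGAATCA, with A at N. The Kcnj2 window had a GC content of 66% and held 1 CAGCTG E-box, and the Kcnj14 window, with a GC content of 59.6%, held none of the 3 motifs. Windows were found for 90 of the 134 channel genes. The CAGCTG E-box stood in 21 of these 90 (23.3%), against 11.9% of all 27457 promoter windows of the same length. The SOX core stood in 10 (11.1%, against 15.96% of all) and the AP-1 motif in 2 (2.22%, against 6.36% of all). The median GC content was 62% in the channel windows and 52% in all windows, so the letters of the motifs are not equally likely in both sets. Among the 10 windows of lower channel genes, 3 held an E-box (Cacng8, Kcnj2 and Kcnk4), 2 a SOX core (Kcnk2 and Kcnh1) and 1 an AP-1 motif. Of the 5 higher genes 2 had a window, Kcnj14 and Kcnh5, and neither held any of the 3 motifs. No window was found for the higher genes Kcnj12, Kcnk12 and Kcnb2 or the lower gene Kcna1. These matches are letters in a window, and binding was not measured.

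Tandem-pore channels, which carry background potassium current, were lower in sum, at 59.6 and 42.1 TPM in vector and Slit1. Kcnk10, for a mechanically and lipid-gated channel, made up most of this, with 48.1 and 32.8 TPM (ratio 0.682, interval 0.642 to 0.726), just short of the 1.5-fold limit. Its closest relatives were called lower. Kcnk2 measured 3.50 and 1.68 TPM (2.08-fold lower, interval 1.47 to 3.05, from 94 and 47.4 counts). It is the 1 called gene among the 16 of the 98 whose locus overlaps another protein-coding gene in the annotation; Cacnb1 and Cacnb3, which overlap Rpl19 and Tuba1c, are among the 16. Kcnk4, at 1.08 and 0.33 TPM, was 3.27-fold lower (interval 1.57 to 7.59) from 23.4 and 11.4 counts. The effective length that the deposited values imply for Kcnk4 also differed between the libraries, 2538 bases in vector and 3760 bases in Slit1, and the counting interval of its ratio of counts per 1000000 (CPM), 0.484, included 1. Kcnk12, for a channel that is largely silent when expressed alone, was 2.74-fold higher (0.65 and 1.78 TPM, interval 1.39 to 5.79), resting on 12 and 35 counts. Kcnk1 had 5.94 and 10 counts and was not assessed.

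Voltage-gated potassium channel pores summed to 134.4 TPM in vector and 105.4 TPM in Slit1. Of the 37 genes, 26 had enough counts. Of these, 2 were higher (7.69%, against 4.26% of all genes) and 3 lower (11.5%, against 6.15%). The most abundant were Kcna2 and Kcna1, whose products form delayed rectifiers that can assemble in 1 channel. Kcna1 measured 28.1 and 16.8 TPM (1.68-fold lower, interval 1.56 to 1.80, from 2007 and 1247 counts). Kcna2 measured 31.1 and 21.0 TPM (ratio 0.677, interval 0.640 to 0.715), which is 1.48-fold lower and the first value outside the limit. Kcna3, a delayed rectifier gene that has been linked to OPC proliferation, had 31 counts in vector and 3 in Slit1 (2.34 and 0.22 TPM, ratio 0.0940, interval 0.0184 to 0.301). It had the lowest ratio among the 98 channel genes, and it neighbours Kcna2 in the annotation. Kcna6 lay on the other side of 1 (1.79 and 2.14 TPM, ratio 1.20, interval 0.913 to 1.56). Kcna4 and Kcna5 had at most 9.9 counts in either library.

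Other delayed and fast-inactivating pores lay on both sides of 1. Kcnb2, a delayed rectifier gene, measured 0.51 and 0.92 TPM (1.80-fold higher, interval 1.16 to 2.82); its implied effective length was 8547 bases in vector and 6350 in Slit1, and its CPM ratio of 1.42 was below the limit. Kcnc1, of the fast-deactivating type, measured 5.18 and 3.53 TPM (ratio 0.681, interval 0.538 to 0.864). The A-type genes Kcnd2 and Kcnd3 had ratios of 0.810 (interval 0.618 to 1.05) and 0.760 (interval 0.670 to 0.861). The ether-a-go-go genes split, with Kcnh1 2.33-fold lower (0.70 and 0.30 TPM, interval 1.29 to 4.30, from 39 and 17.9 counts) and Kcnh5 1.64-fold higher (0.45 and 0.74 TPM, interval 1.16 to 2.34, from 55.0 and 91.0 counts). Both are below 1 TPM in each library. The M-current gene Kcnq3 measured 2.82 and 2.35 TPM (ratio 0.833, interval 0.649 to 1.07), and its interval includes 1.

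None of the 11 auxiliary potassium channel genes with enough counts was called; among all genes, 4.26% were higher and 6.15% lower. Of the 48 pore genes, 5 were higher and 8 lower. The difference between auxiliary and pore genes was not tested. Kcne5, for a small single-pass subunit that modulates voltage-gated channels, was the most abundant, with 47.1 and 53.7 TPM (ratio 1.14, interval 0.953 to 1.36). Kcnab2 and Kcnab1 encode cytoplasmic beta subunits of the Kcna channels. Kcnab2 measured 44.8 and 35.7 TPM (ratio 0.798, interval 0.735 to 0.865), and Kcnab1 13.6 and 11.8 TPM (ratio 0.867, interval 0.749 to 1.003). Kcnip3, a calcium-binding partner of the A-type channels, measured 16.6 and 15.8 TPM. Kcnmb4, a beta subunit of the large-conductance channel, measured 8.77 and 12.6 TPM (ratio 1.43, interval 1.06 to 1.96), while that channel's pore gene, Kcnma1, had a ratio below 1. Over the whole potassium class the sum was 825.1 and 674.4 TPM, 1.22-fold lower in Slit1. Without Kcnn2 it was 629.9 and 555.8 TPM, 1.13-fold lower.

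**Figure D2:**
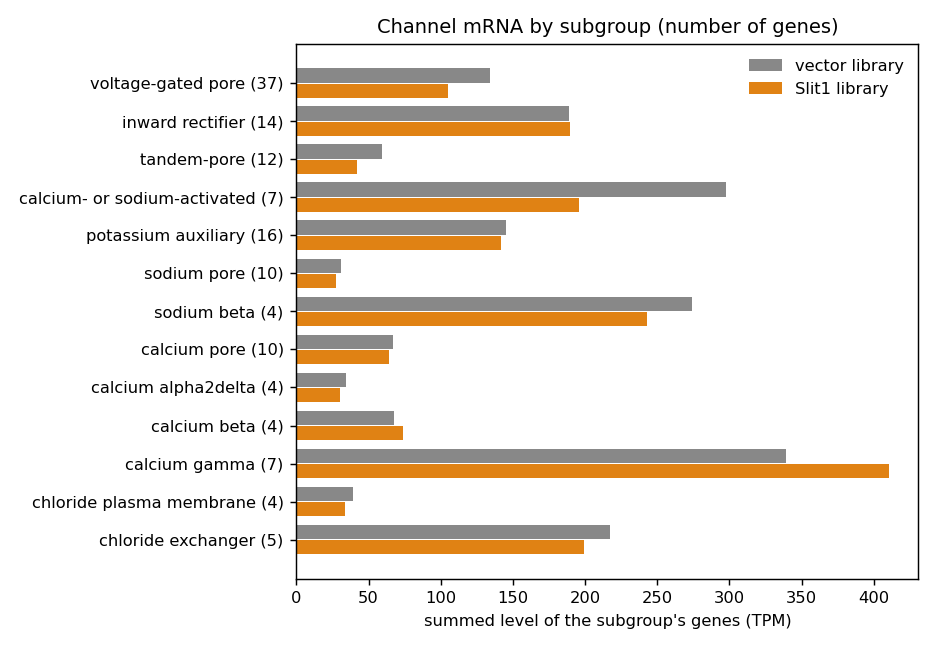
Summed TPM of the genes of each channel subgroup (number of genes in brackets) in the vector library (grey) and the Slit1 library (orange), with bars starting at 0. The widest gaps are in the calcium- or sodium-activated potassium channels (297.3 and 195.5 TPM) and, in the other direction, the calcium channel gamma group (338.9 and 410.5 TPM).

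The sodium channel genes lay on both sides of 1. Among the beta subunits, which modulate the pore, Scn3b (21.4 and 25.4 TPM, ratio 1.18, interval 1.07 to 1.31) and Scn4b (4.07 and 5.48 TPM, ratio 1.35, interval 1.08 to 1.67) lay above 1. Scn2b lay below it (12.01 and 8.72 TPM, ratio 0.726, interval 0.628 to 0.836). The 10 pore genes together reached 30.9 TPM in vector and 27.7 TPM in Slit1. Scn7a, for an atypical sodium-sensing channel found in glia, led with 15.1 and 13.9 TPM (interval of the ratio 0.835 to 1.01). Scn8a, for the channel of nodes of Ranvier, measured 10.96 and 9.59 TPM (ratio 0.875, interval 0.801 to 0.957). Scn2a (2.36 and 2.01 TPM), Scn1a (0.79 and 0.66 TPM) and Scn3a (0.36 and 0.28 TPM) had intervals that include 1. Of the 11 sodium channel genes with enough counts, 8 had a ratio below 1 and the median log2 ratio was -0.22. Among all 13938 genes with enough counts, 7813 had a ratio below 1 and the median log2 ratio was -0.05.

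Calcium channels were the class whose summed TPM and median ratio were above 1 in Slit1. The class summed to 507.4 TPM in vector and 578.8 TPM in Slit1, and its median log2 ratio was 0.13 over 21 genes, 14 of which lay above 1. Among all 13938 genes with enough counts, 6086 lay above 1. The class sum rested on 2 gamma subunit genes, Cacng7 and Cacng4, which made up 63.5% of it in vector and 68.9% in Slit1. Without them the class summed to 185.0 and 179.8 TPM. The gamma subunits of this kind are known chiefly as partners of AMPA-type glutamate receptors, which they bring to the membrane, rather than as parts of calcium channels. Cacng4 measured 159.0 and 210.1 TPM (ratio 1.32, interval 1.23 to 1.42), and Cacng7 163.4 and 188.8 TPM (ratio 1.16, interval 1.08 to 1.23). Cacng8, next to Cacng7 in the annotation and of the same kind, was 1.53-fold lower (15.97 and 10.4 TPM, interval 1.20 to 1.96), and its fold fell under 1.5 with CPM, FPKM, edgeR TMM factors or the median gene set to 0. Cacng5 was scarce, with 12 and 19 counts (ratio 1.51, interval 0.698 to 3.42).

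The second lower calcium channel gene was Cacna2d1, for the alpha2delta subunit that carries pore subunits to the membrane and binds gabapentin. It was 1.85-fold lower, at 14.1 TPM in vector against 7.62 in Slit1 (interval 1.58 to 2.18, from 425.3 and 248.4 counts). Another alpha2delta gene, Cacna2d4, measured 14.7 and 17.4 TPM (ratio 1.18, interval 1.09 to 1.29); its locus overlaps Adipor2 and Lrtm2 in the annotation, and the sources used here do not say how strand was handled. No pore gene was called. Those for T-type channels, which open at low voltage, had ratios of 1.01 in Cacna1h (25.4 and 25.7 TPM, interval 0.944 to 1.08), 1.27 in Cacna1g (8.39 and 10.7 TPM, interval 1.14 to 1.42) and 0.779 in Cacna1i (1.90 and 1.48 TPM, interval 0.613 to 0.990). Cacna1a, for the P/Q-type channel of synapses, measured 22.0 and 17.3 TPM (ratio 0.785, interval 0.729 to 0.846). The L-type genes Cacna1c (0.83 and 0.94 TPM) and Cacna1d (3.60 and 3.09 TPM) had intervals that include 1. The beta subunits Cacnb1 (36.1 and 39.5 TPM), Cacnb3 (21.3 and 25.2 TPM) and Cacnb4 (1.78 and 2.21 TPM) had ratios of 1.09, 1.18 and 1.24, and the interval of Cacnb3 left out 1 (1.04 to 1.34). The other beta subunit gene, Cacnb2, had a ratio below 1 with an interval that includes it (8.16 and 7.02 TPM, ratio 0.860, interval 0.724 to 1.02).

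Chloride channel mRNA came mostly from the vesicular exchangers, which swap chloride for protons in endosomes and lysosomes. The 5 exchanger genes summed to 217.2 TPM in vector and 199.0 TPM in Slit1. Clcn5, for an endosomal exchanger, was 1.70-fold lower (6.99 and 4.11 TPM, interval 1.47 to 1.96, from 514.0 and 311.0 counts). With the trend of the ratio on transcript length removed, it was no longer 1.5-fold lower. Clcn3 measured 65.4 and 49.4 TPM (ratio 0.756, interval 0.715 to 0.798). Clcn4 measured 43.95 and 40.4 TPM (ratio 0.919, interval 0.864 to 0.978), but its CPM ratio was 1.01. Clcn6 (62.0 and 63.6 TPM) and Clcn7, for the lysosomal exchanger (38.8 and 41.4 TPM), had ratios of 1.03 and 1.07 with intervals that include 1. Clcn2, for a plasma membrane channel whose loss is known to damage myelin, measured 38.1 and 33.0 TPM (ratio 0.866, interval 0.787 to 0.952).

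**Figure D3:**
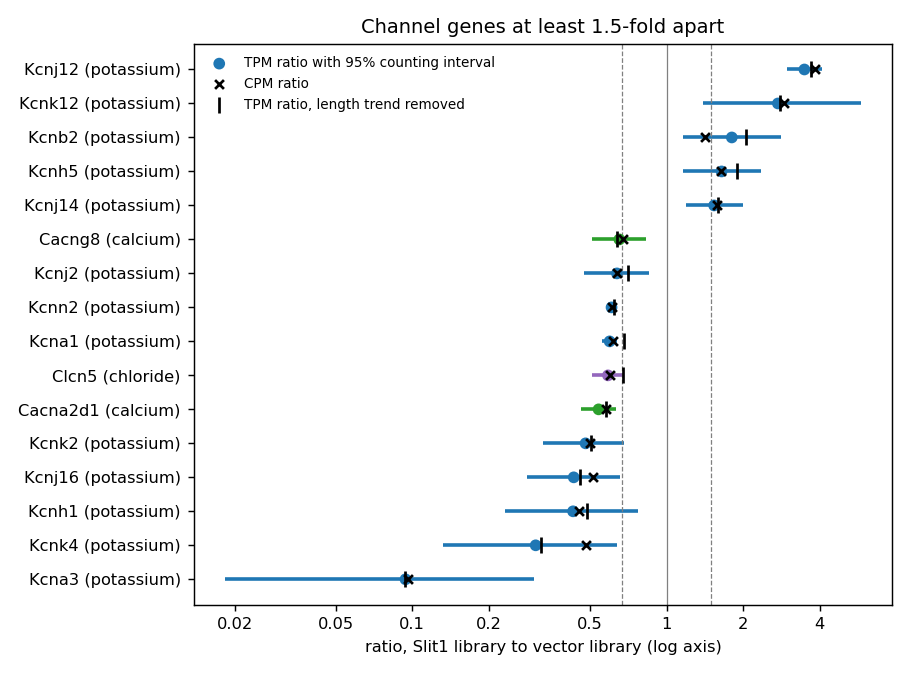
Ratio of the Slit1 to the vector library on a log axis for the 16 called channel genes; dots are TPM ratios with their 95% counting interval, crosses CPM ratios and upright bars TPM ratios after removal of the trend on transcript length. Dashed lines mark 1.5-fold. The interval of Kcnj12 (2.97 to 4.10) is narrow, whereas that of Kcna3 (0.0184 to 0.301) is wide because it rests on 3 counts in Slit1.

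Transcript length moved with the ratios. Over all genes, the median log2 ratio was 0.05 in the shortest of 5 equal length groups and -0.16 in the longest, and the median effective lengths of these groups were 1085 and 6248 bases. Channel transcripts were long: their median effective length was 3952 bases against 2665 bases for all genes, and 41 of the 98 fell in the longest group. With the length trend removed the median log2 ratio was -0.05 for potassium, -0.04 for sodium, 0.20 for calcium and -0.14 for chloride channel genes. With it in place these medians were -0.21, -0.22, 0.13 and -0.21. After the removal 8 channel genes were lower (8.16%, against 4.56% of all genes) and 6 higher (6.12%, against 5.27%). Clcn5, Kcna1 and Kcnj2 left the lower set, and Kcns2, with 9 and 21.0 counts, joined the higher set.

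**Figure D4:**
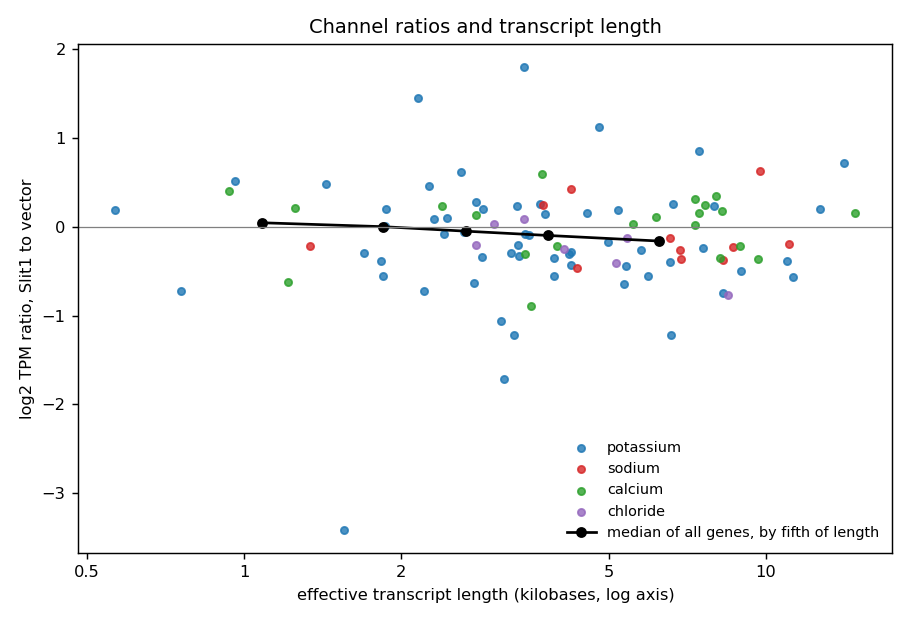
Log2 TPM ratio (Slit1 to vector) of the 98 channel genes by class against effective transcript length in kilobases on a log axis, with the median of all genes in each of 5 length groups as black points. The black line falls from 0.05 to -0.16 with length, and Kcnj12 (1.80) and Kcna3 (-3.41) are the highest and lowest channel genes.

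Channel genes that sit next to each other were compared by the side of 1 on which their ratios lay. Of 17 pairs of members that follow each other among protein-coding genes of GRCr8, 10 had enough counts in both genes, and 4 of these had both ratios on the same side of 1. Several of these genes, among them Cacng5 and Kcna6, had intervals that include 1, so their side is uncertain. Among all genes, 6086 had a ratio above 1 and 7813 below. Whether neighbours differ from other pairs of genes was not tested. Kcnj16 and Kcnj2 were the pair in which both were called. In the sodium channel cluster, Scn9a (0.20 and 0.31 TPM, ratio 1.55, interval 0.792 to 2.95) lay between Scn1a and Scn7a, whose ratios were below 1.

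Genes that work with these channels were counted from separate lists by the same rule, by which 4.26% of all genes were higher and 6.15% lower. Of 27 measured partners and anchors, 2 were higher (7.41%) and 1 lower (3.70%). The higher ones were Nfasc, for the neurofascin that assembles nodes and paranodes (84.3 and 225.0 TPM, ratio 2.67, interval 2.60 to 2.75), and Ank3, for the ankyrin that anchors sodium channels (3.81 and 9.24 TPM, ratio 2.43, interval 2.07 to 2.86). The lower one was Fgf12, whose product binds sodium channel pores (59.9 and 39.7 TPM, 1.51-fold lower). Of 57 other channel genes, 3 were higher, Hcn2 (12.2 and 23.9 TPM, ratio 1.95, interval 1.69 to 2.26) and the acid-sensing Asic1 and Asic4, and 3 lower, Clic4, Trpm3 and Unc80 (5.26% in each direction). Of 28 pump and transporter genes, 3 were higher, among them Fxyd1 and Fxyd6, for regulators of the sodium pump, and 4 were lower (10.7% and 14.3%). The lower ones were the calcium pump genes Atp2a3 and Atp2b1, the exchanger gene Slc24a2 and Slc12a2, for the chloride importer (65.6 and 43.5 TPM, ratio 0.664, interval 0.630 to 0.699). Fgf12, Clic4, Trpm3 and Slc12a2 were less than 1.5-fold lower with CPM, FPKM, edgeR TMM factors or the median gene set to 0. With the length trend removed, Fgf12, Trpm3 and Slc12a2 were also less than 1.5-fold lower (ratios 0.683, 0.741 and 0.748), and Clic4 was not (0.628). Atp2b1 was less than 1.5-fold lower with the TMM factors (0.671). Other ratios passed 1.5 only under another scaling. Tpcn2 (TPM ratio 1.48) was at 1.62 with CPM, 1.53 with FPKM and 1.63 with the TMM factors. Dpp10 (TPM ratio 1.38) was at 2.13 with CPM and 2.15 with the TMM factors, but at 1.42 with FPKM. With the length trend removed, Tpcn2, Dpp10 and Sptbn4 had ratios of 1.55, 1.54 and 1.61. Tmem63c and Hvcn1 had TPM intervals that include 1, and CPM ratios of 3.30 and 2.63. The median log2 ratios of the 3 lists were -0.08, -0.05 and -0.08, beside -0.05 for all genes.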

How the data were processed

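RNA-seq of 2 libraries, 1 per group, was analysed from 1 table. The authors deposited FPKM, TPM (scaled by the authors to a total of 1000000) and read counts per gene, per the file headers; TPM has 2 decimals. The read counts the authors deposited are estimated counts, since many are not whole. Per the submitters' processing notes the build was mRatBN7.2; the sources used here name no aligner, counter, annotation, strand setting or filter. The library totals were 18817462 (vector) and 18998770 (Slit1) counts. At the median channel length, 3 counts equalled 0.0878 TPM in the vector library and 0.0844 TPM in the Slit1 library.

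The ratio of TPM values (Slit1 to vector) was computed with Python 3.11.15 for genes with 20 or more summed counts. Its 95% interval treats the rounded counts as Poisson and conditions on their sum (exact, Clopper-Pearson); it was then rescaled to TPM. A library at 0 was set to 3 counts. No test was possible with 1 library per group. The calculation was run on simulated Poisson counts with CPM ratios. That simulation held no spread between cultures and no effective lengths, so it did not test the rescaling to TPM. Effective length was derived from counts and FPKM. Alternatives were CPM, FPKM, the median gene set to 0, edgeR 4.0.16 TMM factors, log2(TPM + 1) and log2(TPM + 0.1), count minimums of 100 or none, fold limits of 2 and of 5 to 4, and no interval requirement; removal of the length trend (lowess, span 0.3) and sums without abundant members were chosen after seeing the data.

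Named were every called member, the 5 most abundant of each class, and 38 channel genes listed for the oligodendrocyte lineage, but a few of these genes are not reported here. Others were chosen after their values were seen, as were the printed promoters. Members and lists were chosen with earlier results of these data known. The NCBI gene identifiers of all 134 members were found in the RefSeq annotation of GRCr8, and neighbours and promoters were matched by these identifiers.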

Additional observations from a re-analysis of the deposited data

How the results depend on the processing

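No paired analysis was possible because each group holds 1 library, and for the same reason no replicate could be left out. Counts moved by over 1.5 times as follows. The 5 higher potassium channel genes became 2 with log2(TPM + 1), 3 with a minimum of 100 counts and 2 at a fold limit of 2; the 8 lower ones became 5 with that minimum, 5 at 2-fold and 16 at a looser limit, a ratio of 5 to 4. The 2 lower calcium channel genes became 1 with CPM, FPKM, the median gene set to 0, edgeR TMM factors and log2(TPM + 1), 0 at 2-fold and 4 at the looser limit. The 1 lower chloride channel gene became 0 at 2-fold, 0 with the length trend removed and 2 at the looser limit. At the looser limit 2 calcium channel genes were higher, and 1 sodium channel gene was higher and 1 lower. Without the interval requirement 1 sodium (Scn9a) and 1 calcium (Cacng5) channel gene was higher. Over all genes, 270 were higher and 231 lower at 2-fold (1.94% and 1.66%), and 1363 and 2393 at the looser limit (9.78% and 17.2%). The shares of all genes were 3.33% higher and 4.44% lower with log2(TPM + 1), and 3.70% and 5.46% with the minimum of 100 counts. That minimum left 36 of the 59 potassium channel genes. With CPM, FPKM, the median gene set to 0 and edgeR TMM factors, 4.61% to 5.04% of all genes were lower. Without the interval requirement 5.45% of all genes were higher. The median log2 ratio of all genes moved from -0.05 to -0.0124 in CPM, -0.00794 in FPKM, -0.00059 with edgeR TMM factors, 0 when centred on it and 0.00824 with the length trend removed. The fold limits and the interval requirement leave the class medians as they are. Over the other alternatives the median log2 ratio ranged from -0.25 to -0.05 for potassium, from -0.22 to -0.04 for sodium, from 0.08 to 0.20 for calcium and from -0.21 to -0.12 for chloride channel genes. Depth limits the scarce members: of the 29 with under 100 summed counts, 24 had an interval that includes 1, against 31 of the 69 with 100 or more.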
